A study of Mus musculus with 8 samples.

Results

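The superoxide and peroxide removing enzymes examined here were 10 genes out of larger families, chosen by symbol with earlier results of these data known. The list held the superoxide dismutases Sod1, Sod2 and Sod3, the copper chaperone Ccs, catalase (Cat), the glutathione peroxidases Gpx1, Gpx3 and Gpx4, and the peroxiredoxins Prdx3 and Prdx6. These were 10 of 17234 genes tested in whole lungs of newborn mice. The platform annotation gave them 23 array features, of which 23 passed the filter on dim features, and the brightest feature stood for each gene. There were 8 Agilent arrays with 1 dye, 4 from pups labelled Fgf10+/- (titled TG) and 4 from pups labelled wild-type. Both groups had the C57Bl/6J background and were held in 85% oxygen from postnatal day 0 to day 3, and no lungs from room air were among the samples. The labels state neither the deleted part of Fgf10 nor what TG stands for, and they do not tie samples to litters. Whether pups of a group shared a litter is therefore unknown, as is how far litter and genotype coincide. The spread may be partly technical.

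Lungs exposed to high oxygen make more superoxide, mostly in mitochondria and through NADPH oxidases. Superoxide dismutases convert superoxide to hydrogen peroxide, in the cytosol (SOD1), the mitochondrial matrix (SOD2) and the extracellular matrix (SOD3). Hydrogen peroxide and lipid peroxides are then reduced by catalase in peroxisomes, by the selenium-dependent glutathione peroxidases, and by the peroxiredoxins, whose catalytic cysteines are reduced again by thioredoxin or, for PRDX6, by glutathione.

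Sod3 stood apart from the other members. It was 1.91-fold lower in lungs labelled Fgf10+/-, with no overlap between the groups. Cat had a higher mean and Gpx3 a lower mean in those lungs, each by more than 0.5 on the log2 scale, but the arrays of the groups overlapped for both. The other 7 members had differences below 0.25 in size. Of the 10 members 4 had a positive and 6 a negative difference, with a median of -0.07, against 0.01 over all genes tested. By limma, across all genes, 1 of the 10 members was past an adjusted p of 0.05, where 0.795% of all genes were called in either direction and 0.569% were called lower. Likewise 1 of 10 members had groups that did not overlap, against 6.64% of all genes in either direction and 3.51% of all genes in the lower one. This contrast is the one the members were picked with, so their differences are given as a description, without p-values, and nothing is read from these counts.

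**Figure D1:**
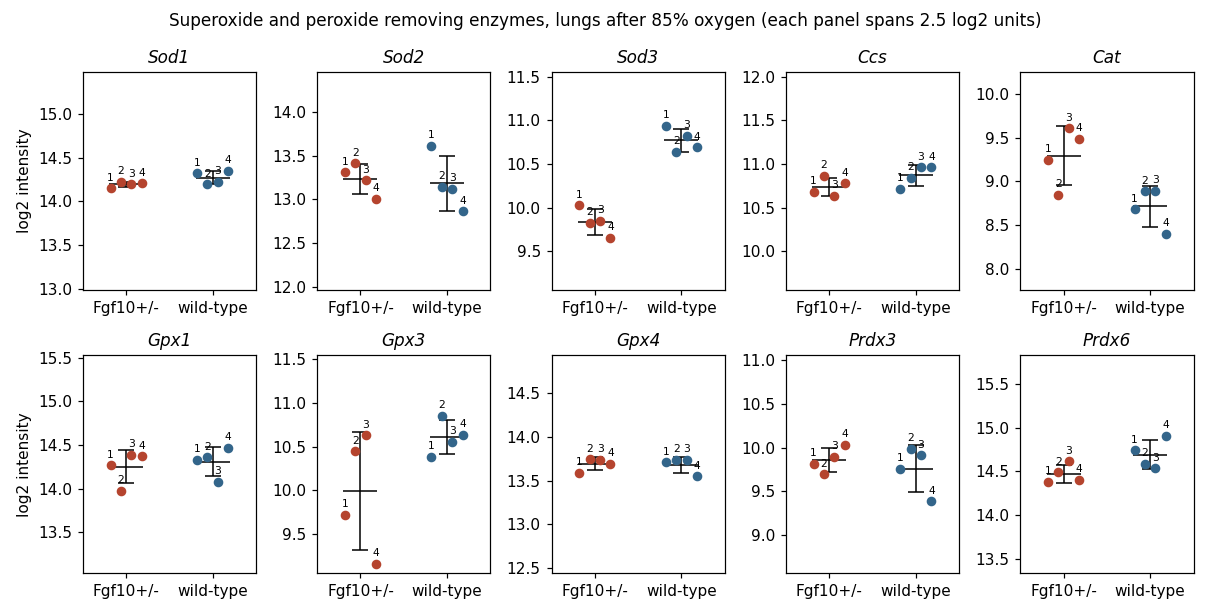
Log2 intensity of the 10 members in each array (points, numbered by replicate), with Fgf10+/- lungs to the left and wild-type lungs to the right of each panel; bars show mean and SD (n = 4 each). Every panel spans the same range, and Sod3 is the panel whose groups lie apart, at 9.65 to 10.02 against 10.64 to 10.93.

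Fgf10 itself read 7.81, 7.99, 8.10 and 8.28 in arrays 1 to 4 labelled Fgf10+/-, against 7.53, 8.16, 7.91 and 7.64 in wild-type arrays 1 to 4 (log2 intensity, limma adjusted p = 0.653). It was not lower in the arrays labelled heterozygous, and since the position of its features relative to the deletion is unknown, it does not check the labels, on which every direction below rests. As marks of lung tissue, the surfactant gene Sftpc read 15.99 in both groups, at the top of the scale, and the alveolar type 1 cell gene Ager 12.18 against 12.32. Wild-type array 1 had the highest macrophage marker score (0.67, the mean of gene-centred log2 values over 13 markers). Wild-type array 4 had the highest heart muscle score (0.94, over 9 markers). There Nppa read 11.25, against 4.55 to 6.25 in the other arrays. Tnnt2, Sln and Myh6 were also highest there, while Actc1, Myl4, Myl7, Tnni3 and Ryr2 were not. Values without these arrays are given for some members and marker lists. The heart muscle median was -0.08 with all arrays and 0.16 without wild-type array 4. The neutrophil marker median was -0.08, and 0.13 without wild-type array 1. In whole lung, fewer cells of a type and less RNA per cell cannot be told apart.

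SOD3 is the secreted superoxide dismutase, which binds heparan sulphate in the matrix around vessels and airways and is made in the lung by vascular smooth muscle and alveolar type 2 cells, among others. Its 1 feature read 10.02, 9.82, 9.85 and 9.65 in arrays 1 to 4 labelled Fgf10+/-, against 10.93, 10.64, 10.82 and 10.69 in wild-type arrays 1 to 4. The highest Fgf10+/- array lay 0.62 below the lowest wild-type array. The means were 9.84 ± 0.15 and 10.77 ± 0.13 (log2 intensity, SD, n = 4 each), a difference of -0.93 (SE 0.10), and 1.42% of all genes tested had a difference as low. In 8 fits that each lacked 1 array the difference stayed between -0.996 and -0.872. The fit without a variance trend over intensity called no member. No second feature of Sod3 was on the array to compare with.

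Among marker lists of cell types in the same lungs, called genes were found for type 2 cells and dividing cells, and 1 for macrophages. In limma, 11.2% of all genes had an unadjusted p below 0.05. Smooth muscle markers had a negative difference in 9 of 10 genes (median -0.27), with none past limma's adjusted threshold and 5 at an unadjusted p below 0.05, and their summed linear intensity was 41383 to 47575 in lungs labelled Fgf10+/- against 45229 to 59936 in wild-type lungs. Fibroblast markers were negative in 7 of 10 (median -0.21, none called and 2 at an unadjusted p below 0.05, sums of 62410 to 78613 against 70217 to 95682). Macrophage markers were negative in 10 of 13 (median -0.59, 6 at an unadjusted p below 0.05), and only Spp1, which encodes osteopontin, was called lower. The 3 positive ones were Siglecf at 0.56, Marco at 0.10 and Fcgr1 at 0.03. The sums of all 13 were 15985 to 17715 against 17447, 17773 and 20524 in wild-type arrays 2 to 4 and 26917 in wild-type array 1. Leaving out wild-type array 1 gave a macrophage median of -0.33, and leaving out array 3 of the Fgf10+/- group gave -0.34. Markers of blood vessel endothelium were negative in 9 of 11, with none called and 5 at an unadjusted p below 0.05 (median -0.09, sums of 22346 to 27223 against 26456 to 29557). Their median was -0.19 without array 3 labelled Fgf10+/-. Ciliated cell markers were positive in 9 of 10, with none called and 5 at an unadjusted p below 0.05 (median 0.38, and 0.26 without wild-type array 4, sums of 8134 to 10883 against 5720 to 8210). Markers of dividing cells were negative in 10 of 10 with 7 called lower, where 0.569% of all genes were. Their sums of 2060 to 3459 and 4523 to 9004 did not overlap. Alveolar type 2 cell markers went the other way, with 13 of 14 positive and 5 called higher, where 0.226% of all genes were (median 0.34, sums of 198882 to 213782 against 174500 to 187571). No marker can read 0 on this scale, and the part of these cell types in the Sod3 difference was not tested.

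The cytosolic dismutase Sod1 varied least around its mean. It read 14.15, 14.22, 14.19 and 14.21 in arrays labelled Fgf10+/- against 14.32, 14.20, 14.22 and 14.35 in wild-type arrays, a difference of -0.08 (SE 0.06). The groups overlapped, and wild-type arrays 1 and 4 were highest. Ccs, which delivers copper to SOD1, read 10.68, 10.86, 10.63 and 10.78 against 10.72, 10.84, 10.96 and 10.96, a difference of -0.13 (SE 0.09) with overlapping groups.

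Sod2 encodes the manganese enzyme of the mitochondrial matrix and is a known target of inflammatory signalling through NF-kB. It read 13.31, 13.41, 13.22 and 13.01 in arrays labelled Fgf10+/-, against 13.61, 13.14, 13.12 and 12.86 in wild-type arrays. The wild-type arrays held both the highest and the lowest value, so the groups overlapped fully. The highest was array 1, which also had the highest macrophage score. The difference was 0.05 (SE 0.13) with all arrays, 0.20 without wild-type array 1 and -0.05 without wild-type array 4.

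Catalase, which breaks down hydrogen peroxide in peroxisomes, read 9.25, 8.84, 9.61 and 9.49 in arrays labelled Fgf10+/-, against 8.68, 8.89, 8.89 and 8.40 in wild-type arrays. Of the 4 Fgf10+/- arrays, array 2 lay inside the wild-type range and the rest above it. The means were 9.30 ± 0.34 and 8.71 ± 0.23 (SD, n = 4 each), a difference of 0.58 (SE 0.17), and 4.22% of all genes had one as high. Its second, dimmer feature read 6.84, 7.10, 7.52 and 7.15 against 6.64, 6.56, 7.02 and 6.03 and gave nearly the same difference, 0.59, again with overlapping groups. Leaving out wild-type array 4 gave 0.48, and leaving out array 2 of the Fgf10+/- group gave 0.73. Alveolar type 2 cells are rich in peroxisomes, and 5 of their 14 markers were called higher in the same lungs, with array scores over all 14 of 0.09 to 0.20 against -0.24 to -0.06. Red blood cells also hold catalase. Of 10 of their markers 9 had a positive difference and none was called (median 0.15). The 1 at an unadjusted p below 0.05 in limma, against 11.2% of all genes, was Tfrc at 0.86. The marker sums were 123488 to 138645 against 103283 to 144808. Hba-a1 and Hbb-bt made up most of these sums. Their group means of 15.80 to 15.98 lay near the top of the scale, so the sums could hardly show a rise. The marker median was 0.02 without wild-type array 3 and 0.36 without wild-type array 2. The part of either cell type in the catalase values was not tested.

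Gpx3 encodes the glutathione peroxidase secreted into plasma and extracellular fluid. It read 9.72, 10.45, 10.63 and 9.16 in arrays labelled Fgf10+/-, against 10.38, 10.85, 10.55 and 10.63 in wild-type arrays. Arrays 1 and 4 labelled Fgf10+/- lay below every wild-type array, while arrays 2 and 3 lay within the wild-type range. The SD was 0.68 in the Fgf10+/- group, the widest of any member, and 0.19 in the wild-type group (n = 4 each). The difference of -0.62 (SE 0.25) was -0.34 without array 4 and -0.83 without array 3 of the Fgf10+/- group.

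The other glutathione peroxidases were close between groups. Gpx1, the cytosolic and mitochondrial enzyme, read 14.26, 13.97, 14.39 and 14.37 in arrays labelled Fgf10+/- against 14.33, 14.36, 14.07 and 14.47 in wild-type arrays, a difference of -0.06 (SE 0.10). Gpx4, which reduces lipid peroxides within membranes and limits ferroptosis, read 13.59, 13.75, 13.74 and 13.69 against 13.71, 13.74, 13.74 and 13.55, a difference of 0.01 (SE 0.07). Groups overlapped for both genes. The sign of Gpx1 changed in 1 and that of Gpx4 in 3 of the 8 runs with an array left out.

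Prdx6, a peroxiredoxin with phospholipase activity that is abundant in alveolar type 2 and club cells, read 14.38, 14.49, 14.61 and 14.40 in arrays labelled Fgf10+/-, against 14.74, 14.59, 14.53 and 14.90 in wild-type arrays. Array 3 labelled Fgf10+/- lay above wild-type arrays 2 and 3, so the groups overlapped. The difference was -0.22 (SE 0.09), or 1.17-fold lower. Features 2 and 3 differed by -0.26 and -0.24, and the dim feature 4 by 0.15, where array 3 labelled Fgf10+/- read 6.83 and the other arrays 4.43 to 5.53. Of the type 2 cell markers described above, 13 of 14 had a positive difference. Club cell markers were positive in 7 of 8 genes, with none called and none at an unadjusted p below 0.05 in limma (sums of 142623 to 154800 against 134902 to 151548). The part of either cell type in the Prdx6 values was not tested.

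Prdx3, the mitochondrial peroxiredoxin, read 9.82, 9.70, 9.90 and 10.03 in arrays labelled Fgf10+/-, against 9.76, 9.99, 9.91 and 9.38 in wild-type arrays. Wild-type array 4 was lowest, and the difference of 0.10 (SE 0.13) was -0.02 without it. All 10 Prdx3 features had a higher mean in arrays labelled Fgf10+/-, by 0.03 to 0.22, with overlapping groups in each. The 10 features measure the same RNA samples and are no replicates.

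**Figure D2:**
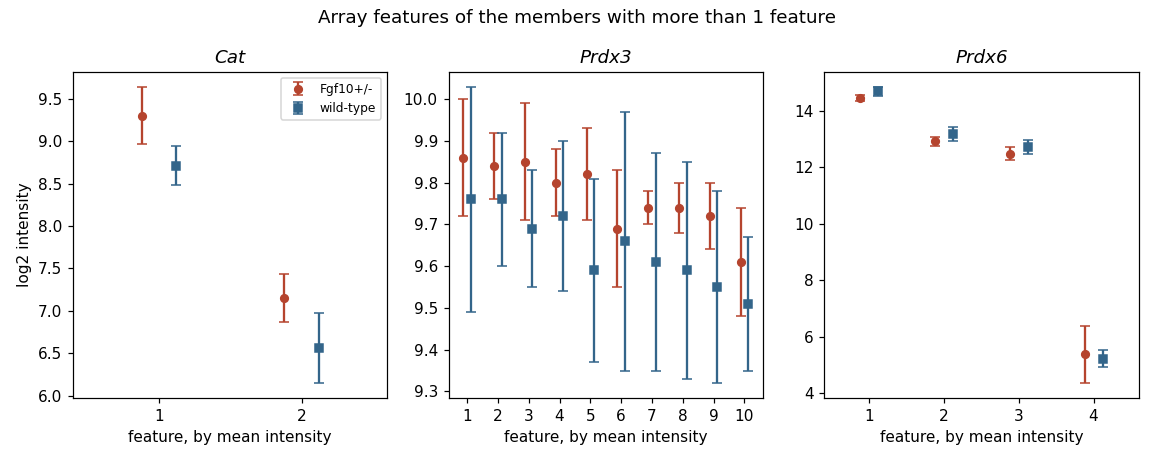
Mean log2 intensity and SD (n = 4 arrays each) of every feature of Cat, Prdx3 and Prdx6, in order of brightness, with Fgf10+/- (circles) left of wild-type (squares). Both Cat features and all 10 Prdx3 features are higher in Fgf10+/- means, and 3 of 4 Prdx6 features are lower.

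Across the members, wild-type array 4 was at an extreme most often, with the highest value of the 8 arrays for 4 members (Sod1, Ccs, Gpx1 and Prdx6) and the lowest for another 4 (Sod2, Cat, Gpx4 and Prdx3). Leaving it out reversed the sign of Sod2, Gpx4 and Prdx3, whose differences were near 0, and left Sod3 at -0.96. The arrays labelled Fgf10+/- held the lowest value of the other 6 members, of which Sod3 and Gpx3 were lowest in array 4.

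**Figure D3:**
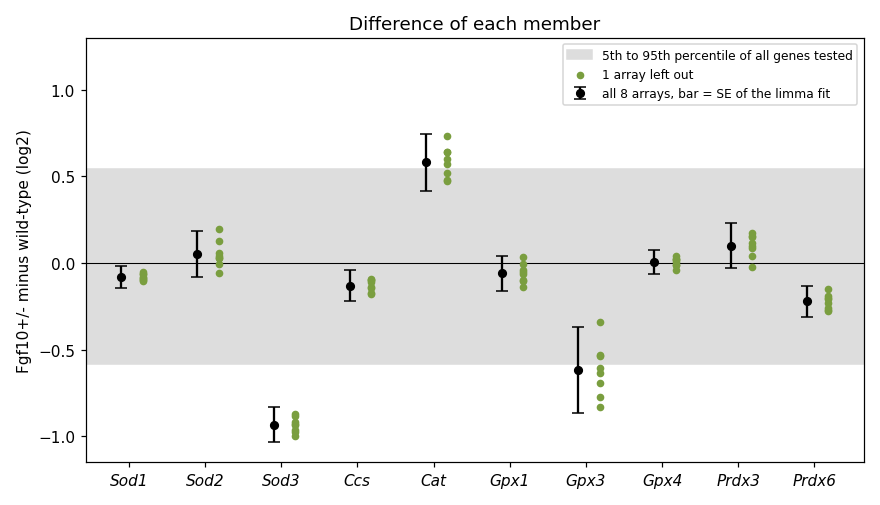
Difference of each member, Fgf10+/- minus wild-type on the log2 scale, with all 8 arrays (black, bar = SE of the limma fit) and with each array left out in turn (green); the grey band holds 5% to 95% of all genes tested, from -0.58 to 0.54. Sod3 lies below the band in every run, and Gpx3 spans -0.83 to -0.34.

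For the 3 members with the widest spread over the 8 arrays, the genes most like them were sought as those with the smallest root mean square difference of gene-centred log2 values. Sod3 was closest to Paip1, which encodes a regulator of translation (distance 0.12), and to the ubiquitin ligase gene G2e3 (0.17). The brightest G2e3 feature differed by -0.70, while the mean of its features gave -0.32 and the median -0.16. Paip1 read 7.31, 6.97, 6.88 and 6.83 in arrays labelled Fgf10+/-, against 7.89, 7.52, 7.90 and 7.82 in wild-type arrays, and fell by 0.79 (limma adjusted p = 0.0425). It was still called in 1 of the 8 fits that lacked an array, and the second, dimmer Paip1 feature differed by 0.24 in the other direction. Paip1 lies 2 protein-coding genes from Fgf10 on chromosome 13 in the RefSeq order of GRCm38.p6, with Nnt between them, while Sod3 is on chromosome 5. Gpx3 was closest to the laminin gene Lamc3 (0.19) and to Ccdc109a (0.21). Cat was closest to Hhipl1 (0.12) and to Pdk1 (0.13), a kinase that restrains pyruvate dehydrogenase, with differences of 0.45 and 0.53. Single arrays read 2.07 to 3.55 for Ccdc109a and 2.29 to 3.33 for Hhipl1, near the filter level of 2.76, so whether they lay above background is unknown.

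The wider pathway was read through 7 lists of genes that are no members, of which 96 of 105 genes were tested. In limma, across all genes, 0 of the 96 were called, where 0.795% of all genes were. At an unadjusted p below 0.05 there were 10, or 10.4%, against 11.2% of all genes, and 4 of 96 (4.17%) had groups that did not overlap, against 6.64% of all genes. The median difference over the 96 was 0.01, with 51 positive and 45 negative.

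Among the other peroxiredoxins and glutathione peroxidases none of 7 was called and none had an unadjusted p below 0.05 (median 0.01). The smallest unadjusted p-values were those of Prdx5, a peroxiredoxin of mitochondria and peroxisomes, at -0.19 (SE 0.09), and Gpx7, an enzyme of the endoplasmic reticulum, at -0.26 (SE 0.19), which was -0.12 without array 3 labelled Fgf10+/-. Prdx1, Prdx2 and Prdx4 had differences of 0.07, 0.06 and 0.01. These 3, named after their values were seen, are abundant peroxiredoxins of the cytosol and, for Prdx4, the endoplasmic reticulum.

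Thioredoxin reductases keep the thioredoxins reduced that serve the peroxiredoxins. Txnrd2, the mitochondrial reductase, read 10.09, 10.16, 9.93 and 9.81 in arrays labelled Fgf10+/-, against 9.60, 9.80, 9.47 and 9.62 in wild-type arrays (difference 0.37, SE 0.11, limma adjusted p = 0.155). The groups did not overlap, nor did those of Txnrd3, at 0.36 (SE 0.12, adjusted p = 0.229). The groups of the cytosolic reductase Txnrd1, named after its value was seen, overlapped at 0.08 (limma adjusted p = 0.722). None of the 11 genes of the thioredoxin list was called, and 3 had an unadjusted p below 0.05 (median 0.08). The third of these was Txnip, named after its value was seen, at 0.49 (SE 0.21).

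In the glutathione list none of 12 was called and 1 had an unadjusted p below 0.05. That was Nnt, which makes NADPH in mitochondria and carries a deletion in C57BL/6J mice. Its brightest feature, at 10.06 against 10.46, differed by -0.40 (SE 0.13, limma adjusted p = 0.206). Its other features were much dimmer. The next differed by 0.82 (4.52 against 3.70) and the dimmest, near the filter level, by -0.65 (2.56 against 3.22). Nnt is the protein-coding gene next to Fgf10, and where its features lie relative to the deletion is not known here. Me1, a source of cytosolic NADPH, had a value of 0.15 (SE 0.09), and 0.30 with the median of its features.

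Enzymes that make superoxide or hydrogen peroxide had a median of -0.09, with none of 17 called and 3 at an unadjusted p below 0.05. Nox4, an NADPH oxidase that releases hydrogen peroxide, read 8.94, 8.72, 9.14 and 9.20 in arrays labelled Fgf10+/-, against 9.47, 9.44, 9.41 and 9.32 in wild-type arrays. The groups lay apart, with a difference of -0.41 (SE 0.12, limma adjusted p = 0.154), which was -0.08 when the median of its 2 features was used. Xanthine dehydrogenase (Xdh) had -0.68 (SE 0.22, limma adjusted p = 0.211), with overlapping groups. The third was Maob, named after its value was seen, which went the other way at 0.30 (SE 0.10, limma adjusted p = 0.253). The Maob groups did not overlap either.

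Genes that supply copper or selenocysteine gave none called of 16 and none at an unadjusted p below 0.05 in limma (median 0.00), with the selenocysteine factor Secisbp2 at 0.23 (0.13 with the mean of its features) and the selenoprotein P receptor Lrp8 at -0.83 (SE 0.46). Lrp8 averaged 2.70 in lungs labelled Fgf10+/-, below the filter level, against 3.53 in wild-type lungs, and its difference was -0.35 without wild-type array 2, which read 4.96. Among regulators none of 16 was called and 2 had an unadjusted p below 0.05. They were Ppargc1a, a coactivator of mitochondrial and antioxidant genes, at 0.54 (SE 0.17, limma adjusted p = 0.227) and Maff at -0.30 (SE 0.13). With the median of its 2 features Ppargc1a had 0.23. Nfe2l2, which encodes NRF2 and was named after its value was seen, had 0.12. Of 17 other NRF2 targets none was called and 1 had an unadjusted p below 0.05, the transketolase gene Tkt of the pentose phosphate pathway, at 0.49 (SE 0.13, limma adjusted p = 0.132). The heme enzyme Blvrb had -0.19 (SE 0.10).

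**Figure D4:**
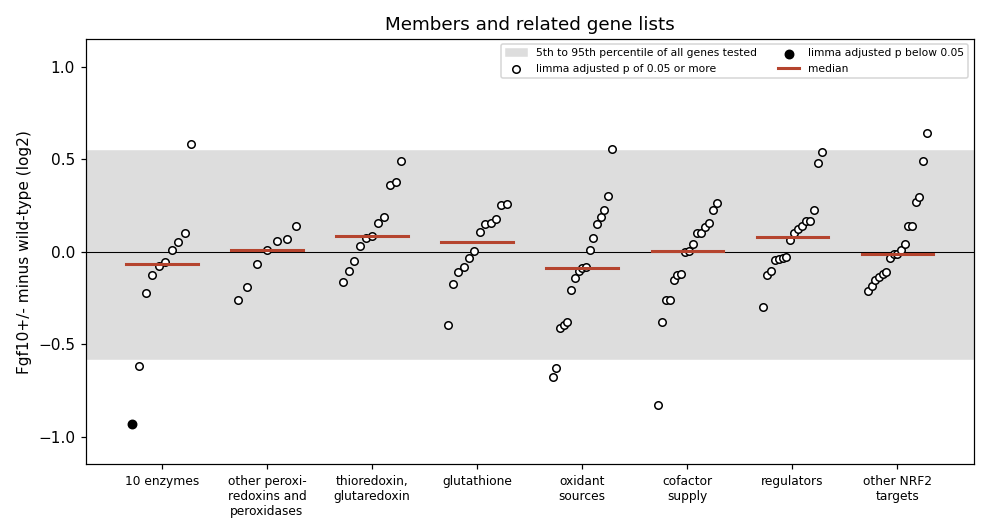
Difference of each gene, Fgf10+/- minus wild-type on the log2 scale, for the 10 members and the 7 related lists; filled points passed limma's adjusted p of 0.05, red lines are medians and the grey band holds 5% to 95% of all genes tested. The 1 filled point is Sod3, and the list medians lie between -0.09 and 0.08.

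RefSeq promoter windows (GRCm38.p6) were at hand for 7 of the 10 members, namely Sod1, Sod2, Cat, Gpx1, Gpx3, Gpx4 and Prdx3. The 250 bases before the start site are printed for Cat and Gpx3, the members with the largest differences among these 7, and for Sod1, the 1 member of these whose window held an antioxidant response element. Capitals mark the letters of the motifs searched on both strands, which were the antioxidant response element bound by NRF2 (TGACNNNGC), the GC box (GGGCGG), the TATA box (TATAAA) and the CCAAT box (CCAAT).
Cat, chr2:103485154-103485403, minus strand: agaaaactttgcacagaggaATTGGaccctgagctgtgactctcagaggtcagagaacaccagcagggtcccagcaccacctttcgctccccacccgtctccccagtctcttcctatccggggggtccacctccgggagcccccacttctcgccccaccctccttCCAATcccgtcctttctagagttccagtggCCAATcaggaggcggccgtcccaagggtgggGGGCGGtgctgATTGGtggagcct
Gpx3, chr11:54902604-54902853, plus strand: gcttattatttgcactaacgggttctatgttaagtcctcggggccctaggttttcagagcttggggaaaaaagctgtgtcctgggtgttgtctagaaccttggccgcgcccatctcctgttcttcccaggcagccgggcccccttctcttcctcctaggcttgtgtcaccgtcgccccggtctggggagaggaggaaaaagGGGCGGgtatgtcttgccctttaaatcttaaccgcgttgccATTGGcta
Sod1, chr16:90220512-90220761, plus strand: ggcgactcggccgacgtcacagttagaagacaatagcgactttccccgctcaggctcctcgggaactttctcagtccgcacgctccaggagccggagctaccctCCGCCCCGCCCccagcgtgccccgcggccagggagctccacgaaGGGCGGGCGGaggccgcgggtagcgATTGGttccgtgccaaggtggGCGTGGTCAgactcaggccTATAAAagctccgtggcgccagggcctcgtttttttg

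The Cat window held 4 CCAAT boxes and 1 GC box, and the Gpx3 window 1 of each. The Sod1 window held 4 GC boxes in overlapping pairs, a TATA box at -37 to -32 and, at -56 to -48 on the minus strand, an antioxidant response element. Of all 32851 promoter windows of the same length 10.2% held the antioxidant response element, 32.7% a GC box, 12.4% a TATA box and 33.9% a CCAAT box. No such element was in these letters of the Cat and Gpx3 windows, which says nothing of NRF2 itself.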

How the data were processed

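Total RNA of whole lung was amplified with Agilent's low-input kit and hybridised in 1 colour, per the labels' protocols. The deposited table holds log2 intensities of 62976 features on 8 arrays. Limma was used to make them, per the submitters' processing notes, which give neither its version nor the background correction. The 8 deposited log2 columns have nearly identical quantiles, as quantile-normalized values do, and were used as they are. Features with missing values (189) were left out. The platform annotation named 31465 features, of which 29050 were matched by accession to RefSeq (GRCm38.p6) and 2933 symbols updated. Dim features, with a mean under the 30th percentile (log2 intensity 2.76), were dropped, and the brightest feature stood for each of 17234 genes. R 4.3.3 and limma 3.58.1 (lmFit, eBayes with a variance trend) tested Fgf10+/- minus wild-type, two-sided, with Benjamini-Hochberg adjustment over all genes at 0.05.

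The members and lists were chosen with earlier results of these data known. The genes named were the members, Fgf10, called genes or else the 2 with the smallest unadjusted p of each related list, and the 2 genes most like each of the 3 most variable members, predicted genes left out. Genes outside this rule are marked as such or stand as cell type markers. On simulated data of the same 4 against 4 comparison with 17234 genes, a log2 change of 0.5 was recovered in 17.6% and a log2 change of 1 in 50.4% of the changed genes. Arrays have no read depth, and their number limits the precision. The alternatives were the filter, the feature that stands for a gene, normalization, variance trend, array weights, a block for the replicate number and each array left out.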

Additional observations from a re-analysis of the deposited data

Results flagged for a closer look

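In 3 of 62 groups of 4 arrays looked at (31 named genes in both groups), 1 array lay far from the other 3 by Dixon's ratio, where chance gives about 1 in 20. Pdk1 read 6.55 in array 2 labelled Fgf10+/-, against 6.94 to 6.98 in the other 3. Lrp8 read 2.88 in array 4 labelled Fgf10+/-, against 2.62 to 2.66, all near the filter level. Gpx4, the 1 member among them, read 13.55 in wild-type array 4, where the remaining wild-type arrays read 13.71 to 13.74.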

How the results depend on the processing

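With each array left out in turn, genes called ranged from 34 to 173, members called stayed at 1, related genes called ranged from 0 to 1, and the median member difference from -0.10 to -0.05. The related gene called was Nnt at -0.52 without wild-type array 1 and Tkt at 0.61 without wild-type array 3. Without the variance trend 1 gene and 0 members were called. The median of all features of Nnt gave 0.67, the reverse of its brightest feature, but its other features were much dimmer. Deviations of same-numbered arrays had correlations of -0.06 to 0.07. Such values cannot exclude a shared litter or day, and same-numbered arrays carry adjacent sample numbers in the labels. With the replicate number as a block 116 genes, 1 member and 0 related genes were called. Paip1 lost its call in that fit, and the median member difference was -0.07. Of 170 values of the members under 17 alternatives, 169 moved by less than 1 SD between arrays or, for Sod3, kept the call. The exception was Sod3 without the trend. The variance trend, the filter and the replicate block could not change a member's difference, nor could the feature choice for members with 1 feature. The columns already had nearly identical quantiles, so further normalization could hardly change a member's difference either. Sign changes near 0 were counted among the 169. For members other than Sod3, leaving 1 array out of a group cannot move the difference by 1 SD. Those runs could therefore not fail this criterion. Leaving arrays out for the marker lists was chosen after seeing the data. Causes were not tested. Background levels were not at hand, so for features near 2.76 it is unknown whether they lay above background.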
